A study of Arabidopsis thaliana with 6 samples.

Results

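*XYP1* (AT5G64080), *XYP2* (AT2G13820), At4g33550 (AT4G33550), At5g05960 (AT5G05960), At3g18280 (AT3G18280) and At3g53980 (AT3G53980) are the 6 genes among the study's 10 lipid transport genes that lie outside the type I family of lipid transfer proteins (LTPs). The study took all 10 from the genes it had called higher in *fbs1–1*, so the 6 were chosen by their difference between WT and *fbs1–1*, and that difference is given here as a description, which nothing is made to rest on. Each of the 6 is tied to 1 probe set of the ATH1 array, out of 13567 genes with at least 1 named probe set and 22746 probe sets tested. RNA came from whole *Arabidopsis* seedlings that were 12 days old, grown for 5 days at 24 °C and then chilled at 10 °C for 7 days. There were 3 WT and 3 *fbs1–1* samples, each a pool of seedlings on 1 array. *fbs1–1* is a single line with a transposon inserted in the first intron of the F-box gene *FBS1*. Both lines carry the No-0 background by their labels, and the study's methods name No-0 as the matching wild type. The array names of the 3 WT samples read Nd0, and this mismatch was not resolved here. Differences caused by the lost F-box gene and other differences between the 2 lines cannot be told apart. All 6 samples were chilled, so the values show levels in the cold and not a response to it. None of the tables used ties a probe set to *FBS1*, so its own level is not reported.

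All 6 genes are annotated as members of the bifunctional inhibitor, lipid-transfer protein and seed storage 2S albumin superfamily. Proteins of this superfamily are small and usually secreted. A conserved pattern of cysteines, paired in disulfide bridges, folds them around a hydrophobic cavity that can hold a lipid. Plant LTPs are known for work at the cell surface, in the building of cutin, wax and suberin layers and in defense. Xylogen is an extracellular proteoglycan that joins an LTP domain with arabinogalactan chains. It was found in *Zinnia* cell cultures, where it mediates signaling between cells that become tracheary elements, the water-conducting cells of the xylem, and *XYP1* and *XYP2* encode *Arabidopsis* xylogen proteins. For the other 4 genes the annotation gives the superfamily only.

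The values are log2 intensities after RMA (robust multi-array) normalization, and 1 unit is a doubling. Array medians lay between 2.62 and 2.72. Values below 2, here called the low end, made up 40.2% to 40.8% of each array, and no detection calls come with them. The array numbers in the labels put replicate 1 of each genotype (arrays 43 and 45) in a first array set and the other 4 arrays (59 to 62) in a second. In a linear model across all probe sets (limma, Benjamini-Hochberg adjusted p under 0.05), 382 probe sets were higher in *fbs1–1* and 358 were higher in WT, together 3.25% of those tested. The seedlings held root and shoot RNA. *BGLU23* (*PYK10*), a beta-glucosidase gene known for its high expression in roots, ranged from 9.88 to 10.3 over the 6 arrays. *PSAN*, a photosystem I subunit gene and the single photosynthesis gene looked at, was at 10.58, 10.24 and 10.37 on the WT arrays and at 9.76, 9.92 and 9.28 on the *fbs1–1* arrays. *PSAN* lies 4 places before *XYP1* on the chromosome and was picked after its values were seen. It was not called (log2 difference -0.74, adjusted p = 0.0590 from limma). WT was above, the opposite direction to the 6 genes, and the size was near that of 5 of them. The part of a shift in shoot RNA in their differences was not tested. In whole seedlings, a lower share of cells of a type and less RNA per cell cannot be told apart.

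All 6 genes were higher in *fbs1–1* than in WT, by 1.76-fold to 4.07-fold. For each of them every *fbs1–1* array exceeded every WT array, as was so for 10.8% of all probe sets tested, and nothing is read from this count because the genes were chosen for this difference. The median log2 difference over the 6 was 0.92, and over all probe sets it was 0.01. At4g33550 stood apart with the largest difference, and the other 5 lay close together, between 0.81 and 0.97 on the log2 scale. No array holds a value of any of the 6 below 2.

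*XYP1* had log2 values of 4.61, 5.51 and 5.16 on WT arrays 1, 2 and 3, and of 5.97, 6.05 and 6.15 on *fbs1–1* arrays 1, 2 and 3. The *fbs1–1* arrays were close to each other, and the WT arrays were spread, with replicate 1 far below the others. The means were 5.09 ± 0.45 (SD, n = 3 arrays) in WT and 6.06 ± 0.09 (n = 3) in *fbs1–1*. This is a log2 difference of 0.97 (standard error 0.20 from limma) or 1.95-fold. Standard errors here and for the genes below come from limma, which draws each gene's variance towards that of all probe sets. For these genes they are smaller than the spread of the gene's own arrays would give. Over the 9 pairs of 1 *fbs1–1* and 1 WT array, the ratio ran from 1.38-fold to 2.91-fold.

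*XYP2*, the second xylogen gene, had log2 values of 4.15, 4.48 and 4.53 on the WT arrays and of 5.11, 5.28 and 5.24 on the *fbs1–1* arrays. It was the steadiest of the 6 within a genotype, and its groups were separated by 0.59 between the lowest *fbs1–1* and the highest WT array. The means were 4.38 ± 0.21 (SD, n = 3) in WT and 5.21 ± 0.09 in *fbs1–1*, a log2 difference of 0.83 (standard error 0.12) or 1.78-fold. The spread within genotypes, pooled over both, was 0.16 for *XYP2* and 0.33 for *XYP1*, against a median of 0.14 over all probe sets. Both xylogen genes are named through the study's list of called genes, because the platform table at hand does not name their probe sets.

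At4g33550 had log2 values of 2.32, 2.93 and 3.13 on the WT arrays and of 4.41, 5.29 and 4.76 on the *fbs1–1* arrays. The groups lay 1.28 apart at their nearest, the widest gap among the 6. The WT mean was 2.79 ± 0.42 (SD, n = 3), not far above the low end, and the *fbs1–1* mean was 4.82 ± 0.44, a log2 difference of 2.03 (standard error 0.26) or 4.07-fold. The ratio ran from 2.43-fold to 7.80-fold over the 9 pairs. Ordered by size, this difference took place 21 of 22746 among those in favor of *fbs1–1*, while the other 5 genes took places between 155 and 231.

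At5g05960 was at 5.48, 6.31 and 6.14 on the WT arrays and at 6.89, 6.78 and 6.99 on the *fbs1–1* arrays. As for *XYP1*, the *fbs1–1* arrays were close together and WT replicate 1 was well below the rest. The means were 5.98 ± 0.44 (SD, n = 3) in WT and 6.88 ± 0.10 in *fbs1–1*, a log2 difference of 0.91 (standard error 0.20) or 1.87-fold. At3g53980 was at 4.78, 5.71 and 5.76 in WT and at 6.14, 6.51 and 6.39 in *fbs1–1*. Its WT replicate 1 was almost 1 unit below the other WT arrays, which gave it the widest WT spread of the 6, 5.42 ± 0.55 against 6.35 ± 0.19 in *fbs1–1*. The log2 difference was 0.93 (standard error 0.25) or 1.91-fold, and the nearest arrays of the 2 genotypes were 0.38 apart.

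At3g18280 had log2 values of 4.52, 5.18 and 5.08 on the WT arrays and of 5.92, 5.56 and 5.74 on the *fbs1–1* arrays. It is the only one of the 6 with its highest value on *fbs1–1* replicate 1. The means were 4.93 ± 0.35 (SD, n = 3) in WT and 5.74 ± 0.18 in *fbs1–1*, a log2 difference of 0.81 (standard error 0.18) or 1.76-fold, the smallest of the set. The plot of the 6 genes array by array shows the separation of the genotypes for each gene and the low position of WT replicate 1.

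**Figure D1:**
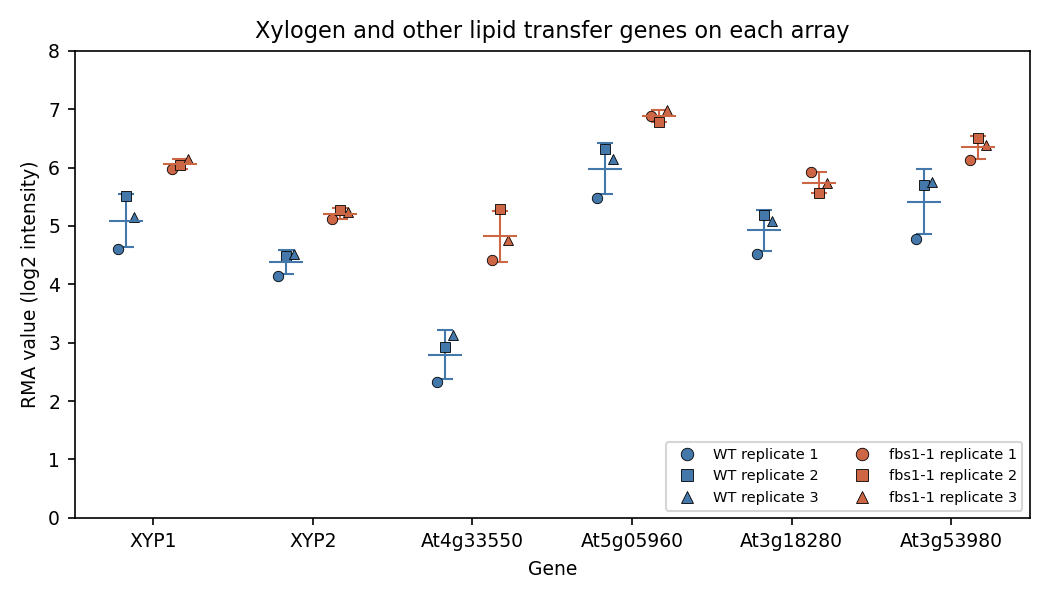
RMA values (log2 intensity, y axis) of the 6 genes (x axis) on each of 3 WT and 3 *fbs1–1* arrays, with the mean (wide bar) and SD (whiskers) of each genotype, and symbols for the replicate. The genotypes do not overlap for any of the 6 genes, and WT replicate 1 is the lowest array for each.

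WT replicate 1 was the lowest of the 6 arrays for all 6 genes. It was the lowest of the 6 arrays for 23.8% of all probe sets. Among the 3 WT arrays alone it was the lowest for 37.8% of all probe sets, and for 47.7% of those with a mean of at least 2. Its value minus the mean of the other 2 WT arrays ran from -0.96 (At3g53980) to -0.35 (*XYP2*), and over all probe sets the median of this deviation was 0.01, just above 0. *fbs1–1* replicate 1 was the lowest *fbs1–1* array for 4 of the genes, and its deviation from the mean of the other *fbs1–1* arrays ran from -0.61 for At4g33550 to 0.27 for At3g18280. WT replicate 1 is part of the contrast by which the genes were chosen, so its low values are not independent of the choice.

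Within each array set the difference was positive for all 6 genes, which follows from every *fbs1–1* array exceeding every WT array. For all 6 it was larger in the first set, which holds 1 array per genotype, than in the second, which holds 2. *XYP1* differed by 1.36 in the first set and 0.77 in the second, and *XYP2* by 0.97 and 0.76, on the log2 scale. At5g05960 differed by 1.41 and 0.65, At3g53980 by 1.36 and 0.72, and At3g18280 by 1.40 and 0.52. At4g33550 showed nearly the same difference in both sets, 2.09 in the first and 2.0 in the second. The gap between the sets had a median of 0.62 over the 6 genes and of -0.02 over all probe sets, which were not chosen on this contrast. Type I genes chosen on it were smaller in the first set than in the second for *LTP2* (0.60 and 1.02), *LTP3* (1.20 and 1.92), *LTP4* (1.37 and 1.99) and *LTP7* (0.25 and 1.11). *LTP6* was larger in the first (1.22 and 1.02). Without WT replicate 1 the log2 differences fell to 0.72 for *XYP1*, 0.71 for *XYP2*, 1.79 for At4g33550, 0.66 for At5g05960, and 0.61 for both At3g18280 and At3g53980, the lowest value of each gene when 1 array was left out. The part of the array set in the size of these differences was not tested.

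**Figure D2:**
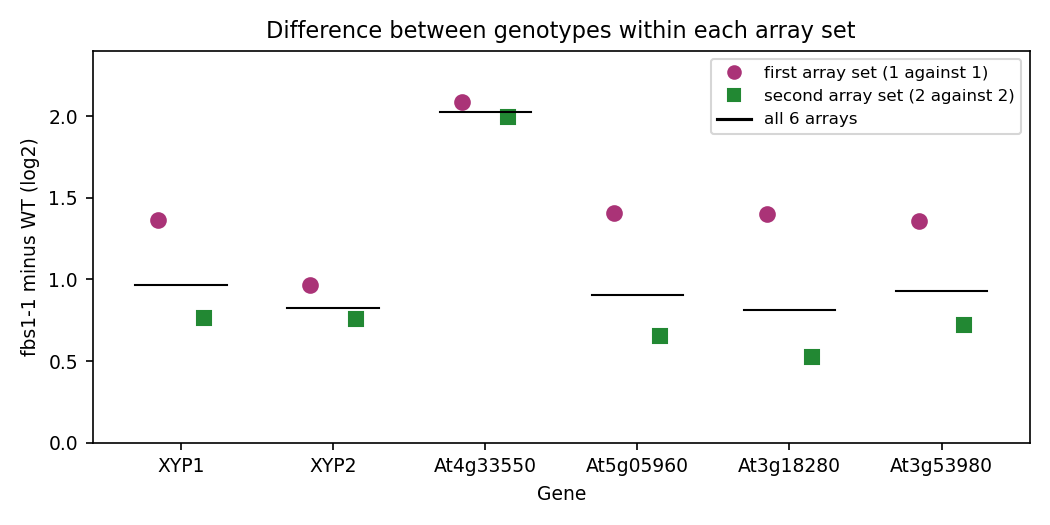
Log2 difference, *fbs1–1* minus WT (y axis), of the 6 genes (x axis) in the first array set (1 array per genotype, circles), in the second (2 arrays per genotype, squares) and over all 6 arrays (bars). At3g18280 moves the most between the sets, from 1.40 to 0.52, and At4g33550 the least.

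Once each gene was centred on its own mean over the 6 arrays, *XYP1* and At5g05960 had nearly the same profile, with a root mean square distance of 0.08 on the log2 scale. At5g05960 and At3g18280 were 0.11 apart. *XYP1* and *XYP2*, the xylogen pair, were 0.19 apart, and 7 of the other pairs without At4g33550 lay between 0.17 and 0.25. At4g33550 lay between 0.58 and 0.71 from the others. These distances include the genotype difference by which all 6 were chosen, and they are given as a description over 6 arrays.

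**Figure D3:**
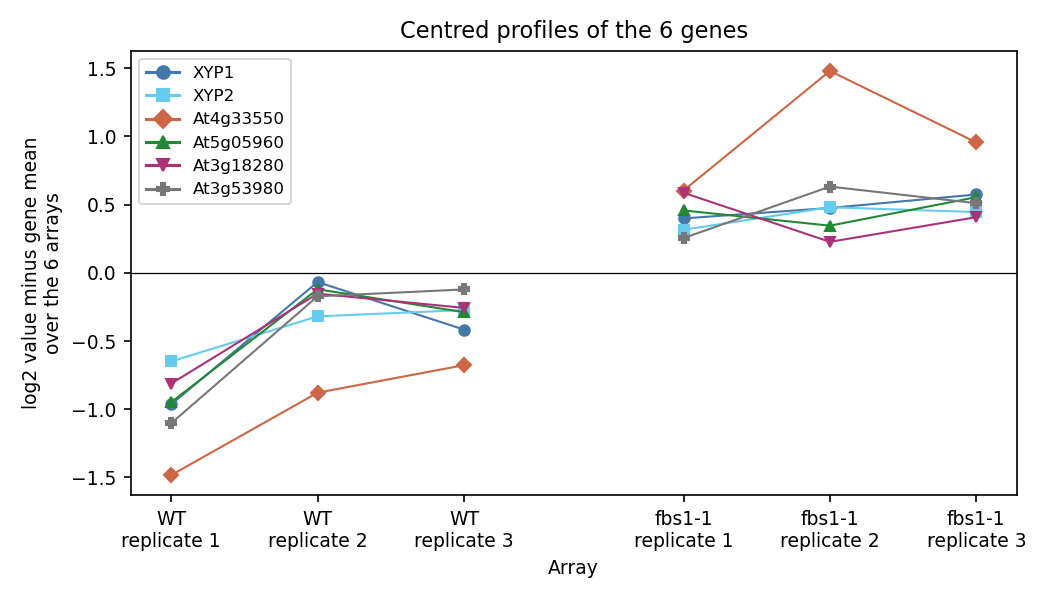
Log2 value minus the gene's mean over the 6 arrays (y axis) of the 6 genes on each array (x axis), where lines join the arrays of 1 genotype and carry no order. Apart from At4g33550, which spans the widest range, the genes lie close to each other on each array, with their lowest point on WT replicate 1.

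The centred profile of each of the 6 genes was also set against all named genes on the array. *ICDH* (At1g54340), an isocitrate dehydrogenase gene, was the nearest to *XYP1* (distance 0.07) and to At5g05960 (0.05), at 2.27, 3.08 and 2.81 in WT and 3.69, 3.57 and 3.83 in *fbs1–1*. The next nearest to *XYP1* after At5g05960 was *RCI3*, a peroxidase gene known as inducible by cold, at a distance of 0.11. At3g50210 was the nearest to *XYP2* (0.05), At5g52540 to At3g18280 (0.06) and At1g28400 to At3g53980 (0.08). *MP*, the auxin response factor gene *MONOPTEROS*, was the second nearest to At3g18280, at 0.07, and *ABCG1*, a transporter gene, the second nearest to At3g53980, at 0.12. *RCI3*, *MP* and *ABCG1* are named through the study's lists of called genes.

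Of the 3 genes nearest to At4g33550, 2 were type I LTP genes. At4g20860 came first at a distance of 0.15, *LTP4* next at 0.24 and then *LTP3* at 0.27. *LTP4* had log2 values of 2.83, 3.05 and 3.01 on the WT arrays and of 4.20, 5.43 and 4.61 on the *fbs1–1* arrays. Like At4g33550, *LTP3* and *LTP4* had their highest value on *fbs1–1* replicate 2 and their lowest *fbs1–1* value on replicate 1. The same order held for *XYP2*, At3g53980, *LTP2* and *LTP10*, so it is not particular to these genes. *LTP3* and *LTP4* are named through the study's list of called genes, and the distances include the genotype difference by which At4g33550 was chosen. In WT, the arrays of *LTP4* were closer together (SD 0.12) than those of At4g33550 (SD 0.42).

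The study chose the 6 genes by rank products on these same 6 arrays, with a percentage of false prediction under 0.05, so that their place inside this threshold is fixed by the choice and tests nothing. As a description, the percentage of false prediction computed here was 0.0148 for *XYP1*, 0.0206 for At5g05960, 0.0207 for At3g53980, 0.0271 for *XYP2* and 0.0355 for At3g18280, and At4g33550 was at 0. At3g18280 is thus the gene of the set nearest to the threshold, and *LTP7*, at 0.0398, was the LTP gene just inside it. Just outside were At2g37870 at 0.0747, with a log2 difference of 0.72, and *LTP10* at 0.127, with a difference of 0.66. By this test 1.15% of all probe sets were higher in *fbs1–1*. At2g37870 was at 2.73, 2.67 and 2.07 in WT and at 3.54, 3.15 and 2.95 in *fbs1–1*, without overlap, and *LTP10* was at 6.60, 7.33 and 7.16 in WT and at 7.47, 8.10 and 7.51 in *fbs1–1*.

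The relatives of the 6 genes were looked at in lists of loci assigned to families from general knowledge, since the tables used here annotate few of them. The 3 lists outside type I were GPI-anchored and xylogen-like LTPs, type II and *DIR1*-like LTPs, and proline-rich 8-cysteine proteins. Of their 73 loci, 37 have a named probe set, and none of the 37 was called by limma in either direction. Here and below, only probe sets named for 1 gene count. Of those tested, 8520 have no gene name, so genes left out may still be measured on the array. The lists leave out the 6 genes themselves, which the study had called higher in *fbs1–1*. A low count of relatives higher in *fbs1–1* thus follows in part from that choice. Over all probe sets limma called 1.68% higher in *fbs1–1* and 1.57% higher in WT. At an unadjusted p under 0.05, 3 of the 37 were higher in *fbs1–1* and 2 higher in WT, where all probe sets gave 7.99% and 6.71%. Rank products, which called 1.17% of all probe sets higher in WT, called 0 of the 37 higher in *fbs1–1* and 1, *EARLI1*, higher in WT. The median log2 difference over the 37 was -0.06. For 21 of the 37, all 6 arrays were below 2.

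None of the 12 GPI-anchored and xylogen-like genes with a named probe set, the closest listed relatives of *XYP1* and *XYP2*, was called. Limma called 3.25% of all probe sets in either direction. The median log2 difference over the 12 was 0.09, with a range from -0.26 to 0.54. Of the 12, 7 were below 2 on all 6 arrays, so the median rests in part on low-end values. At2g44300 had the largest difference, at 2.51, 3.13 and 3.07 in WT and 3.46, 3.42 and 3.44 in *fbs1–1* (adjusted p = 0.132 from limma). Its genotypes did not overlap and WT replicate 1 was its lowest array, as for the 6 genes. At2g48130 followed with a difference of 0.37 (adjusted p = 0.364 from limma).

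Of the 15 type II and *DIR1*-like genes with a named probe set, none was called, with a median log2 difference of 0.03. That median rests mostly on low-end values, since 11 of the 15 were below 2 on all 6 arrays. At2g37870, described above, had the largest difference (0.72, adjusted p = 0.118 from limma). Limma called it once a block was added, either for the array set (adjusted p = 0.0357) or for the replicate number (0.0158). At1g48750 had a difference of 0.55, at 6.06, 6.81 and 6.70 in WT and 6.92, 7.02 and 7.28 in *fbs1–1* (adjusted p = 0.219 from limma, and 0.0475 when array sets were blocked).

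The proline-rich 8-cysteine genes lay on the other side of 0. All 10 with a probe set had a negative difference, between -1.34 and -0.11 with a median of -0.22, where the median over all probe sets was 0.01. None was called by limma with all 6 arrays. Of the 10, 3 were below 2 on all 6 arrays. Of the 9 named by the platform table, 0 had an unadjusted p under 0.05 from limma. *EARLI1* (At4g12480), known as a gene induced by cold, had log2 values of 6.11, 7.14 and 7.79 in WT and of 5.86, 5.29 and 5.88 in *fbs1–1*. The WT arrays differed among themselves by more than 1 unit, and all 3 lay above the *fbs1–1* arrays. Its mean was 2.53-fold higher in WT (limma adjusted p = 0.112, percentage of false prediction 0.00907), and it is named through the study's list of genes higher in WT. Without WT replicate 1 it was called (log2 difference -1.79, adjusted p = 0.00913 from limma). The neighboring At4g12500, at 3.33, 4.46 and 4.70 in WT and 3.76, 3.34 and 3.42 in *fbs1–1*, was also called without WT replicate 1 (adjusted p = 0.0114), with the genotypes overlapping only through that array. Within the second array set alone, *EARLI1*, At4g12490 and At4g12500 were all higher in WT (adjusted p = 0.0206, 0.0215 and 0.00677 from limma). In the first set, with 1 array per genotype, their log2 differences were -0.24, 1.07 and 0.43, so At4g12490 and At4g12500 went the other way there. Over all 6 arrays the adjusted p from limma was 0.704 for At4g12490 and 0.394 for At4g12500. These 3 are close paralogs, and how far their probe sets bind each other's transcripts was not tested.

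For the type I family, 8 of 12 listed genes have a named probe set. *LTP2*, *LTP3*, *LTP4* and *LTP6* were called higher in *fbs1–1* by limma, as were 1.68% of all probe sets. All 4 were named through the study's list of genes higher in *fbs1–1*, and of the 3 named by the platform table, *LTP8*, *LTP9* and *LTP10*, none was called. The median difference over the 8 was 0.85, but 5 of the 8 were chosen on the same contrast and are named only through it. Over the 3 named by the platform table the median was -0.01, with *LTP8* at -0.28, *LTP9* at -0.01 and *LTP10* at 0.66. *LTP9* was below 2 on all 6 arrays. Leaving out 1 array ended the call of *LTP2* for each WT array and for *fbs1–1* replicate 3 (adjusted p up to 0.124), and that of *LTP3* for *fbs1–1* replicate 3 (0.0509). Within the second array set alone the adjusted p of *LTP2* was 0.0519. WT replicate 1 was the lowest WT array for 5 of the 7 type I genes that reached 2 on an array, *LTP2* and *LTP7* being the exceptions.

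**Figure D4:**
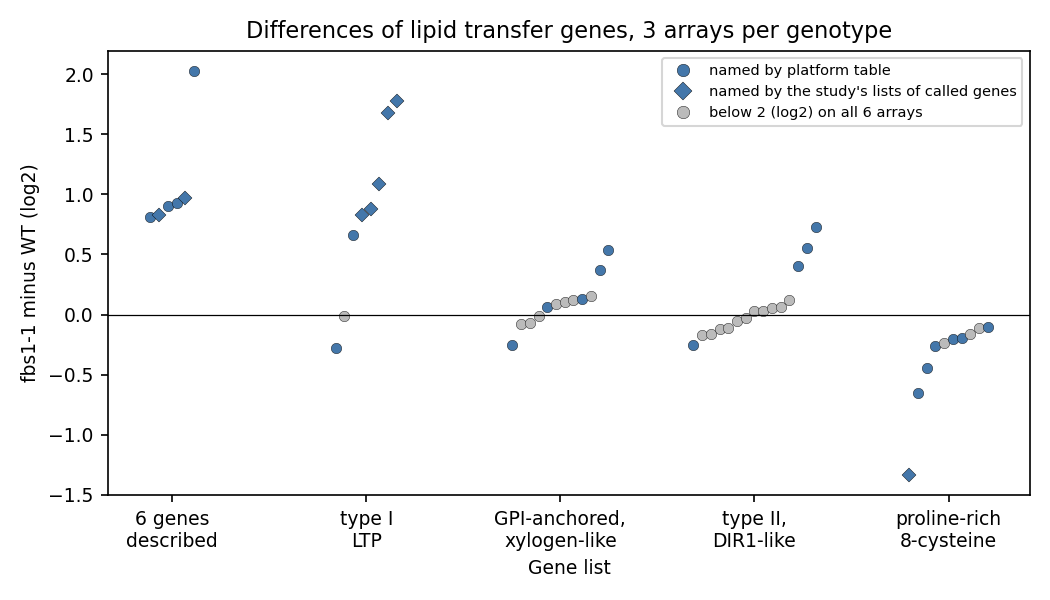
Log2 difference, *fbs1–1* minus WT (y axis), of each lipid transfer gene with a named probe set, by gene list (x axis). Diamonds are genes named only through the study's lists of called genes, and grey points were below 2 on all 6 arrays. The 6 genes lie between 0.81 and 2.03, the 12 GPI-anchored and xylogen-like genes between -0.26 and 0.54, and the 10 proline-rich genes between -1.34 and -0.11. The lists leave out the 6 genes, which were chosen by this difference, so the gap to the lists follows in part from that choice.

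Genes of the xylem and of arabinogalactan proteins could be followed only in part. Of 36 xylem and tracheary element genes listed, 3 have a named probe set. None of the 3 was called by limma, at an unadjusted p under 0.05 or by rank products. *IRX10* and *IRX15*, of xylan synthesis in secondary walls, were at or below 2.13 on every array. *PRX66* (At5g51890), a peroxidase gene of vessels, was at 3.57, 4.53 and 4.38 in WT and 4.53, 4.22 and 4.27 in *fbs1–1*, with its lowest value on WT replicate 1 (difference 0.18, adjusted p = 0.807). *BGLU23*, *EXPA7* and *EXPA18*, the 3 root genes with a probe set, had differences between 0.07 and 0.24 and were not called. The single cuticle gene with a probe set, *WSD1*, had a difference of -0.02 and was below 2 throughout. None of the listed suberin, ABA response, photosynthesis or phloem genes has a named probe set.

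Of 28 arabinogalactan protein genes, 2 have a named probe set, both only through the study's lists, and they moved in opposite directions. *AGP13* was at 2.30, 2.97 and 2.99 in WT and 4.40, 4.28 and 4.20 in *fbs1–1*, 2.91-fold higher in *fbs1–1*. *AGP7* was at 4.89, 5.07 and 5.60 in WT and 2.58, 1.77 and 1.83 in *fbs1–1*, higher in WT, and no fold is given because 2 of the *fbs1–1* values were below 2. Both were called by limma (adjusted p = 0.00341 and 0.000413), on the contrast by which they are known.

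The 6 genes lie on chromosomes 2, 3, 4 and 5, and no pair of them is adjacent. Of the 60 places within 5 genes on either side of them in assembly TAIR10.1, 27 hold a gene with a named probe set. The median log2 difference over the 27 was 0.02. Limma called 3 of these 27 higher in *fbs1–1* and 1 higher in WT, against 1.68% and 1.57% of all probe sets. Of the 26 named by the platform table, it called 2 and 1. At5g64120, 4 places after *XYP1*, was at 5.12, 5.36 and 5.43 in WT and 6.63, 6.44 and 6.53 in *fbs1–1*. Its 2.34-fold difference had an adjusted p of 0.000976 by limma. *BTS* (At3g18290), a ubiquitin ligase gene that restrains the iron deficiency response, lies 2 places after At3g18280 and was 3.07-fold higher (adjusted p = 0.000427), but is known here only through the study's list. At4g33540, next to At4g33550, was 1.54-fold higher (adjusted p = 0.0389), a call that was lost without any 1 array other than *fbs1–1* replicate 2 (up to 0.171), within the second array set alone (0.118) and with median-centred arrays (0.0505). On the other side of At4g33550, At4g33560 had a difference of -0.38 (adjusted p = 0.334). At3g53960, 2 places before At3g53980, was higher in WT by 1.75-fold (adjusted p = 0.0157), and lost its call without WT replicate 2 or 3 or *fbs1–1* replicate 1 or 3 (up to 0.0830). The genes on either side of At3g53980 had differences of -0.12 and 0.13.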

How the data were processed

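The authors processed the 6 ATH1 arrays by RMA and deposited 1 log2 intensity for each probe set and array. The labels give genotype and replicate number. After 64 control probe sets were left out, 22746 were tested with limma 3.58.1 in R 4.3.3, with genotype as the only term and p-values adjusted over all of them. Rank products, the test of the study's methods, were computed in Python 3.11.15 over 9 pairs of arrays with 100 permutations. On simulated arrays of this comparison with 22746 probe sets, limma recovered 79 of 100 probe sets changed 2-fold and called 8 unchanged ones. The platform table names 1 gene for 13484 probe sets, and 234 more are named through the study's lists of called genes, used as a probe map only, without their fold changes and p-values. Of the rest, 508 are tied to several genes and 8520 to none, so a gene without a named probe set may still be on the array. Where several probe sets name 1 gene, the brightest on average stands for it. The members and gene lists were chosen with earlier results of these data known. Named are all 6 members, from each list up to 4 called genes or up to 2 others with the largest difference, the 3 genes nearest in profile, genes next to the threshold, and, chosen after their values were seen, genome neighbors, *PSAN*, At4g12490 and At4g12500. p-values from limma rest on the spread between 3 samples per genotype, with each gene's variance drawn towards that of all probe sets. Precision is limited by the number of arrays. Motifs and proteins were not analysed here. Alternatives were other scaling, a filter on low values, blocks, a variance trend and leaving out each array.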

Additional observations from a re-analysis of the deposited data

How the results depend on the processing

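The differences of the 6 genes kept their sign under every alternative tried for them. This was fixed beforehand, because every *fbs1–1* array exceeded every WT array for each gene, so it tests nothing. The differences moved by less than 1 SD between replicates except for At3g18280, at 0.52 within the second array set alone. When 1 array was left out they ran from 0.72 to 1.17 for *XYP1*, 0.71 to 0.90 for *XYP2*, 1.79 to 2.23 for At4g33550, 0.66 to 1.07 for At5g05960, 0.61 to 0.94 for At3g18280 and 0.61 to 1.10 for At3g53980. Blocking on the array set, limma called 650 probe sets higher in *fbs1–1* and 569 higher in WT. Without 1 array it called 140 to 319 and 142 to 338, with fewer arrays in the fit, and the lowest counts were without *fbs1–1* replicate 3. Among the 37 relatives outside type I, 2 were higher in *fbs1–1* with the array set as a block, 3 were higher in WT within the second set, 0 to 2 were higher in WT without 1 array (2 without WT replicate 1), and 1 was higher in WT by rank products. The cause was not tested. Of the type I genes, 2 to 4 were called without 1 array. The replicate numbers were not taken as pairs. Deviations of same-numbered samples correlated at 0.28, 0.09 and 0.14 for numbers 1, 2 and 3. WT replicate 2 with *fbs1–1* replicate 3 gave 0.11, and WT replicate 3 with *fbs1–1* replicate 2 gave 0.14, much as the same numbers did. Number 1 is also the first array set, and its correlations with numbers 2 and 3 of the other genotype lay between -0.23 and -0.16. The main fit has no term for the array set. With the replicate block, limma called 541 and 487 probe sets, 1 relative higher in *fbs1–1* and 6 type I genes, and the differences of the 6 genes stayed the same by construction.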
